A study of Mus musculus with 40 samples.

Results

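The 4 mature microRNAs described here are mmu-miR-423-5p, mmu-miR-423-3p, mmu-miR-484 and mmu-miR-320-3p, often used as internal references when blood microRNAs are quantified. They were chosen by name, as the rows of the raw count table that carry these names, and not by their values. They make up 4 of the 1915 microRNA rows, and all 4 were among the 105 microRNAs with more than 100 reads in at least 20 of the 40 libraries, the set on which every test was run. The question was how stable these references were in the blood of ageing mice.

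Small RNA from total blood was sequenced in 40 libraries, 10 for each of 4 ages (12 months, 13.5 months, 15 months and 16.5 months). The animals were male wild-type mice, which the study writes as C57B/6J, bled repeatedly from the retro-orbital sinus, and no group carried a transgene. By the study's methods, mice of a learning group were trained in a water maze and were bled 24 h after the memory test from 13.5 months on, whereas a home cage group was not tested, and the labels do not say which libraries came from which group. The first bleeding is described both as before any behaviour and as after a first training, so that age, testing and the number of bleedings cannot be told apart. Library columns were identified by age alone and treated as independent, so that p-values measure the spread between libraries. The study followed the same mice over the ages, and the tests take no account of such a pairing.

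MicroRNAs are short RNAs cut from hairpin precursors, and the bases called the seed, 2 to 8 of the mature strand, direct them to target mRNAs. A hairpin can release a mature strand from either arm, named 5p and 3p. In the usual path the nuclear Microprocessor cuts the hairpin out of a longer transcript, while miR-320 and miR-484 are known for precursors that skip this step and go to Dicer directly. A reference microRNA serves to put samples on a common scale, so its own level should not follow the condition under study.

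The mature sequences of 3 of the 4 were found among the RefSeq entries for GRCm38.p6 and are shown from 5′ to 3′ with the seed in capitals, because they show that these 3 strands have different seeds although the first pair comes from the same hairpin.

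mmu-miR-423-5p: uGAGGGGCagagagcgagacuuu

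mmu-miR-423-3p: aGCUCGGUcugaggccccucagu

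mmu-miR-484: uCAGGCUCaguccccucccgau

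The strand of miR-423-5p lies at chr11:77078122-77078144 and that of miR-423-3p at chr11:77078086-77078108, both on the minus strand. Their hairpin, Mir423, lies in an intron of Nsrp1, a gene on the same strand. The strand of miR-484 lies at chr16:14159630-14159651 on the plus strand, where the hairpin Mir484 overlaps a UTR exon of Marf1 on the opposite strand. Mir320, the hairpin of miR-320-3p, lies between genes on the plus strand of chromosome 14 (70443510 to 70443591), 63 bases from Polr3d on the minus strand. Among the 1679 mature microRNAs in the sequence source, the seed of miR-423-5p occurred in 1 other, miR-6921-5p, and those of miR-423-3p and miR-484 in none. That source lacks some mouse microRNAs, such as miR-320-3p. All 3 strands were rich in G and C. miR-423-3p held 65.2%, the highest of the 90 tested microRNAs with a sequence, miR-484 held 63.6% and miR-423-5p 56.5%, against a median of 45.6%.

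The libraries held 2469196 to 21386209 counts, and miR-486-5p, a red-cell microRNA, took most of them. The reads outside miR-486 ranged from 93002 to 1739959, with a median of 855062 at 12 months, 698499 at 13.5, 267135 at 15 and 597338 at 16.5 months. They were a median of 14.0%, 12.7%, 8.54% and 13.7% of the counts at these ages, with miR-486 entered 1 time. In CPM (counts scaled to a common library size), the summed red-cell markers lay between 998600 and 4058000 at 15 months and between 608400 and 1229000 at 12 months. These sums hold both equal rows of miR-486a and miR-486b, on a scale corrected for composition, whose values need not sum to a fixed total. With the equal rows counted 1 time, 2 of the 4 tested red-cell markers were called over age. The white-cell markers were present, with 0 of 2 tested myeloid and 2 of 2 tested lymphoid markers called over age. Of all tested microRNAs 61% were called in this test, and nothing is read from these few markers about the cell types. The platelet and endothelial pair stayed under a CPM of 6.01 and the liver marker miR-122-5p under 0.183. The part of these shifts in the results was not tested, and in total blood fewer cells of a type and less RNA per cell cannot be told apart. A library of 16.5 months, the shallowest, stood apart from the rest (connectivity Z of -3.27). Values without it are given where a call changed and for some other results, while SDs, ranks and correlations include it. Column names at 15 months carried the letter B in 3 libraries and C in 7, those at 13.5 months had a form of their own, and the meaning of these forms is not given in the sources used here, so at 13.5 and 15 months form and age cannot be told apart.

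Levels are given as CPM after scaling by TMM, which assumes that most microRNAs keep their level, or as log2 of that value. miR-423-5p had the highest level (mean 9.71 on the log2 scale over 40 libraries), followed by miR-484 (9.21), miR-423-3p (6.97) and miR-320-3p (6.17). The ranges of neighbours in this order overlapped between miR-423-5p and miR-484, and between miR-423-3p and miR-320-3p. Counting of reads gives an SD of at least 0.108 log2 in the library with the fewest reads of miR-320-3p, and more where amplified copies were counted as molecules.

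**Figure D1:**
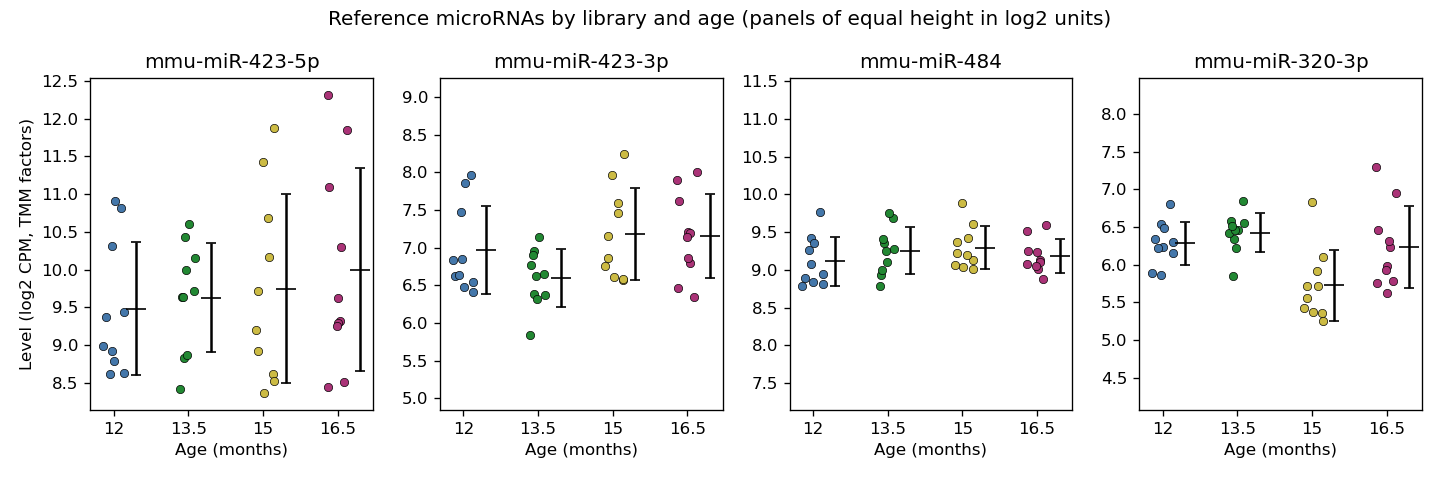
Level of each reference microRNA (log2 CPM with TMM factors) in every library against age in months, with 10 libraries per age as points and the mean with SD as a bar beside them. All panels span the same number of log2 units, so that the wide scatter of miR-423-5p (SD 1.06 over 40 libraries), the narrow band of miR-484 (SD 0.29) and the lower position of miR-320-3p at 15 months (mean 5.72) can be compared by eye.

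With TMM, miR-484 had the smallest spread of the 4 (SD 0.29 over 40 libraries), whereas on library totals without a composition factor miR-423-3p did (0.42, against 0.47 for miR-484). The CPM of miR-484 ran from 441.7 over a median of 514.5 to 872.5 at 12 months, and from 442.3 over 614.1 to 860.6 at 13.5 months. At 15 months it ran from 513.8 over 594.4 to 950.8, and at 16.5 months from 472.6 over 555.1 to 775.1. The ages thus covered nearly the same range, and the highest of the 40 libraries exceeded the lowest by 2.15-fold. The log2 means were 9.11 ± 0.33, 9.26 ± 0.31, 9.30 ± 0.28 and 9.19 ± 0.22 (SD, n = 10 each), and no difference over age was called (adjusted p = 0.586, edgeR quasi-likelihood F-test). Over the 4 ages 61% of the tested microRNAs were called, and of the 4 references 1.

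A test that finds nothing does not show stability, so the 95% interval of each of the 6 differences between ages was also read against a margin of 0.5 log2 in either direction. All 6 intervals of miR-484 lay inside it, reaching from -0.39 at the lowest (16.5 against 15 months) to 0.44 at the highest (15 against 12 months). For miR-320-3p 1 of 6 intervals lay inside, that of 16.5 against 12 months, and for the 2 strands of miR-423 none did. That difference of miR-320-3p was 0.01, and -0.14 without the library that stood apart. Intervals of the other tested microRNAs were not read against the margin, so no share over all stands beside these counts. On library totals without a composition factor, miR-484 instead fell by 0.64 at 15 against 12 months (adjusted p = 0.00256, edgeR), where the median of all 105 microRNAs moved by -0.84. Against 13.5 months it fell by 0.79 on that scale, with a median move of -0.81.

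miR-320-3p was the member called over age (adjusted p = 0.0152, edgeR). Its CPM ran from 57.97 over a median of 77.08 to 112.2 at 12 months, and from 57.81 over 88.1 to 115.2 at 13.5 months. At 15 months it ran from 38.04 over 49.78 to 113.7, and at 16.5 months from 49.51 over 69.44 to 157, the last from the library that stood apart (next 123.6). The 15-month libraries were thus low, but 1 of them lay as high as the top of the earlier ages and the groups overlapped on this scale. That library had the smallest TMM factor of all (0.242) and the lowest share of counts (0.00275%). The log2 means were 6.28 ± 0.29, 6.43 ± 0.26, 5.72 ± 0.47 and 6.23 ± 0.54 (SD, n = 10 each).

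The level at 15 months was 0.699-fold of that at 12 months (log2 difference -0.52, SE 0.19, 95% interval -0.90 to -0.14, adjusted p = 0.0422), with 9 of 10 libraries below the 12-month mean. In this comparison 23.8% of all tested microRNAs were called, and miR-320-3p was the 1 reference called. Against 13.5 months it was 0.636-fold (log2 difference -0.65, SE 0.19, 95% interval -1.03 to -0.27, adjusted p = 0.00362), again with 9 of 10 libraries lower. There 47.6% of all tested microRNAs and 2 of the 4 references were called. At 16.5 months it was 1.44-fold higher than at 15 months (log2 difference 0.53, SE 0.19, 95% interval 0.15 to 0.91, adjusted p = 0.0306), with 28.6% of all and 1 of 4 references called. Without the library that stood apart this last difference was 0.38 and was not called (adjusted p = 0.105). At 15 months the 7 libraries of the C form averaged 5.57 and the 3 of the B form 6.09, and without the B form the differences were -0.66 against 12 and -0.77 against 13.5 months, both called. The call against 12 months was lost when miR-486 was left out of the TMM scaling (-0.42, adjusted p = 0.0961), with median-ratio factors (-0.46, adjusted p = 0.0606) and with only these 2 ages in the fit (-0.40, adjusted p = 0.105).

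The counts behind these values were low, since at 15 months a library held 178 to 352 reads of miR-320-3p, with a median of 204.5, against a median of 1213.5 at 12 months. As a share of all counts it averaged 0.00361% ± 0.000539 at 15 months and 0.00958% ± 0.00177 at 12 months (SD, n = 10 each). The highest share at 15 months was 0.00437% and the lowest at any other age 0.00579%, so 15 months stood apart on this scale. On library totals 82 of all 105 microRNAs were called lower at 15 than at 12 months, and 2 higher (edgeR). The 5p arm of the same hairpin gave 2 reads in 2 of the 40 libraries.

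miR-423-3p was lowest at 13.5 months. Its CPM ran from 84.74 over a median of 106.9 to 250.7 at 12 months, and from 57.4 over 99.62 to 141.1 at 13.5 months. At 15 months it ran from 95.21 over 129.6 to 303.7, and at 16.5 months from 81.25 over 143.6 to 255.4. The 13.5-month libraries lacked the high values seen at the other ages, and all groups overlapped. The log2 means were 6.97 ± 0.58, 6.60 ± 0.38, 7.18 ± 0.61 and 7.15 ± 0.56 (SD, n = 10 each). The test over the 4 ages did not reach the threshold (adjusted p = 0.0666, edgeR), though 6 of 14 other settings did call it. In those 6 settings between 68 of 101 and 90 of 105 microRNAs were called, against 64 of 105 in the main fit.

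Between 13.5 and 15 months the level rose 1.58-fold (log2 difference 0.66, SE 0.24, 95% interval 0.17 to 1.15, adjusted p = 0.0219), with 8 of 10 libraries above the earlier mean, a direction that turned on library totals (-0.24, adjusted p = 0.212), where the median of all microRNAs moved by -0.81. Between 13.5 and 16.5 months it rose 1.52-fold (log2 difference 0.61, SE 0.24, 95% interval 0.12 to 1.09, adjusted p = 0.0405), where 40% of all tested microRNAs and 1 of the 4 references were called. Without the library that stood apart the difference from 13.5 to 16.5 months was 0.51 and was not called (adjusted p = 0.0899). Both calls were lost with voom and library quality weights, at 0.36 (adjusted p = 0.0934, limma) and 0.38 (adjusted p = 0.0626). They were also lost without a filter on low counts, at 0.55 (adjusted p = 0.0795, edgeR) and 0.52 (adjusted p = 0.11). No reference was called at 13.5 against 12 months, where 29.5% of all microRNAs were, or at 16.5 against 12 months, where 23.8% were. With 1 factor of unwanted variation in the fit (RUVs, a kind of correction the study used), miR-423-3p was called lower at 13.5 than at 12 months (-0.58, adjusted p = 1.24e-06, edgeR), as was miR-423-5p (-0.30, adjusted p = 0.026). Over the 4 ages 89 of all 105 microRNAs were called in that fit, against 64 in the main one.

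miR-423-5p, cut from the other arm of that hairpin, varied most. Its CPM ran from 393.1 over a median of 586.7 to 1919 at 12 months, and from 342.1 over 816.9 to 1554 at 13.5 months. At 15 months it ran from 328.9 over 713 to 3772, and at 16.5 months from 348.5 over 711.5 to 5076. The lowest libraries were alike at every age while the highest lay further up at 15 and 16.5 months, so that the highest exceeded the lowest by 4.88-fold, 4.54-fold, 11.5-fold and 14.6-fold within the ages. The value of 5076 came from the library that stood apart.

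The log2 means of miR-423-5p were 9.48 ± 0.88, 9.63 ± 0.72, 9.75 ± 1.25 and 9.998 ± 1.35 (SD, n = 10 each), and no difference was called (adjusted p over age = 0.257, edgeR). The widest interval was that of 16.5 against 12 months, a log2 difference of 0.86 (SE 0.48, 95% interval -0.10 to 1.83), which leaves anything between 0.93-fold and 3.56-fold. Without the library that stood apart this difference was 0.45. Other differences of miR-423-5p changed sign with the scaling, on library totals to -0.49 at 15 against 12 months (adjusted p = 0.15) and -0.62 at 15 against 13.5 months (adjusted p = 0.081), neither of them called.

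**Figure D2:**
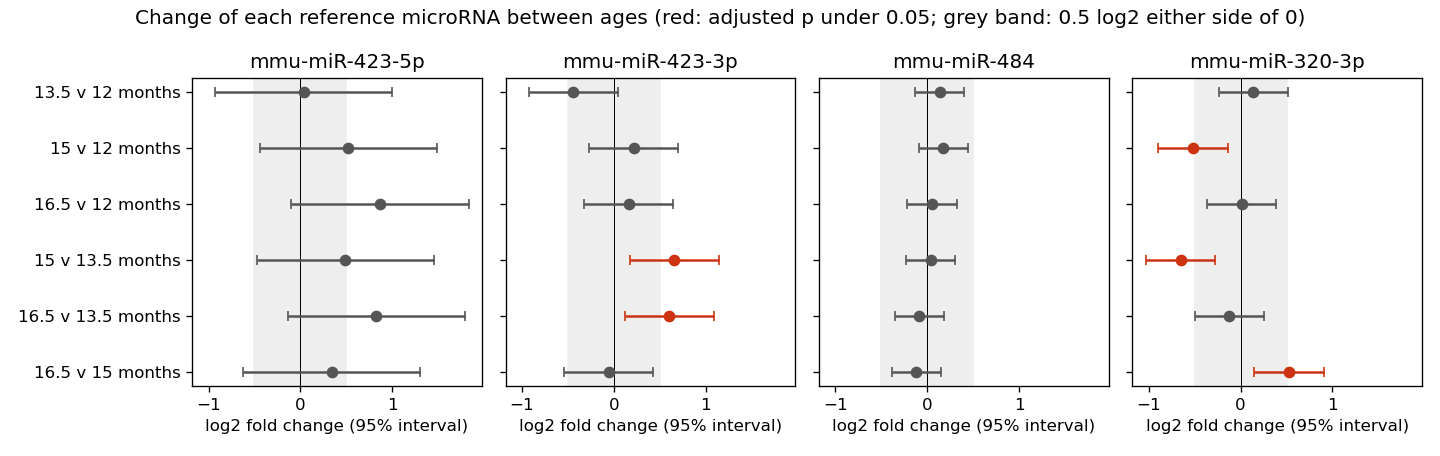
Log2 fold change of each reference microRNA between each pair of ages (first age against second), with its 95% interval from the edgeR fit, in red where the adjusted p was under 0.05 and with a grey band for 0.5 log2 in either direction. All 6 intervals of miR-484 lie in the band, the 5 red points belong to miR-423-3p and miR-320-3p, and the intervals of miR-423-5p reach up to 1.83.

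Set among all 105 tested microRNAs by the SD of the log2 level over 40 libraries, the 4 references stood far apart with TMM. miR-484 was rank 10 from the steadiest (SD 0.29), miR-320-3p rank 52 (0.47), miR-423-3p rank 70 (0.57) and miR-423-5p rank 102 (1.06), against a median of 0.48 and a range of 0.17 to 2.43. The order changed on library totals, where miR-423-3p was rank 4 (0.42), miR-484 rank 8 (0.47), miR-320-3p rank 37 (0.67) and miR-423-5p rank 57 (0.77). The smallest SDs were those of miR-3074-5p (0.17), miR-25-3p (0.18) and miR-30d-5p (0.22).

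The SD over all libraries joins 2 kinds of spread, and the references differed in which was the larger. The age means of miR-484 spanned 0.18 log2, rank 4 of 105, and its pooled SD within an age was 0.29, rank 25. For miR-423-5p the means spanned 0.52, rank 36, while the SD within an age was 1.08, rank 103, so that age took up 3.33% of its sum of squares. For miR-320-3p age took up 31.9%, the most of the 4, with means spanning 0.70 (rank 58) and an SD within an age of 0.41 (rank 59). miR-423-3p lay between, with 17.1%, a span of 0.58 (rank 49) and an SD within an age of 0.54 (rank 79).

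**Figure D3:**
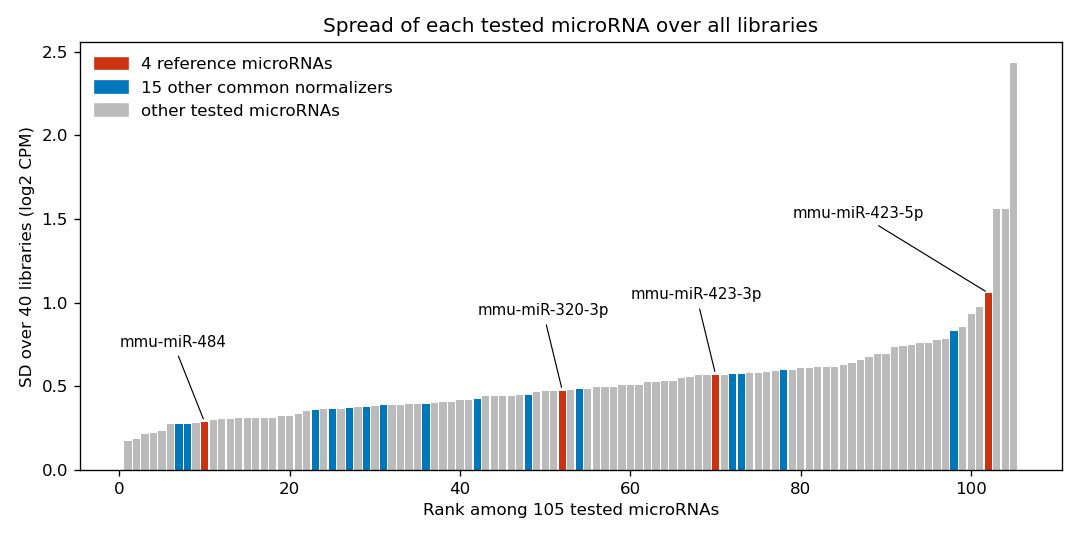
SD of the log2 level (CPM with TMM factors) over 40 libraries for each of the 105 tested microRNAs, ordered from the steadiest, with the 4 references in red and 15 other microRNAs used as normalizers in blue. miR-484 stands at rank 10 and miR-423-5p at rank 102 on this scale, and at ranks 8 and 57 on library totals.

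The same measures were taken for 15 other microRNAs in use as blood normalizers, all of which were tested. Their median SD was 0.40, and 12 of the 15 were called over age, against 61% of all tested microRNAs. miR-425-5p (SD 0.28), miR-26a-5p (0.28) and miR-191-5p (0.36) varied least, and miR-451a (0.83), a red-cell microRNA, miR-93-5p (0.60) and let-7d-5p (0.57) most. Of the 15, 2 had a smaller SD than miR-484, 10 than miR-320-3p, 11 than miR-423-3p and all 15 than miR-423-5p. miR-425-5p and miR-26a-5p were both called over age (adjusted p = 3.8e-05 and 0.000431, edgeR) although their SDs lay just under that of miR-484. At 15 against 12 months 5 of the 15 were called lower and 0 higher, where 17 of all 105 were lower and 8 higher (23.8% called). At 16.5 against 15 months 5 of the 15 were called higher and 0 lower, where 20 of all 105 were higher and 10 lower (28.6% called). In the other comparisons both directions occurred. The 15 had 2 higher and 4 lower at 13.5 against 12 months (all 105: 16 and 15), and 3 and 3 at 16.5 against 12 (14 and 11). They had 3 and 6 at 15 against 13.5 months (18 and 32), and 5 and 4 at 16.5 against 13.5 (19 and 23).

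Ranked by the mean SD of its log2 ratio to each of the others in this set of 19, a measure that needs no library scale, miR-484 was rank 7 (0.58), miR-320-3p rank 12 (0.64), miR-423-3p rank 17 (0.79) and miR-423-5p rank 19 (1.20). The lowest value was that of miR-26a-5p (0.54).

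Ratios between references were formed within each library, so that no scaling enters, and were compared over the ages by permutation tests with 100000 resamples (smallest possible p 1e-05), adjusted over the 6 pairs. The ratio of miR-484 to miR-320-3p averaged 2.83 ± 0.32 at 12, 2.83 ± 0.39 at 13.5, 3.57 ± 0.23 at 15 and 2.95 ± 0.38 at 16.5 months on the log2 scale (SD, n = 10 each), a difference over age (adjusted p = 0.00015, permutation test). The 15-month libraries were high, all 10 above the 12-month mean, though the groups overlapped. The difference was 0.74 against 12 months (adjusted p = 0.00198 over 36 comparisons of 2 ages, permutation test) and 0.74 against 13.5 months (adjusted p = 0.00202), and at 16.5 months the ratio was lower by 0.62 than at 15 months (adjusted p = 0.0021), in 9 of 10 libraries.

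The ratio of miR-423-3p to miR-320-3p moved furthest. It averaged 0.68 ± 0.44 at 12, 0.17 ± 0.40 at 13.5, 1.46 ± 0.33 at 15 and 0.92 ± 0.35 at 16.5 months on the log2 scale (SD, n = 10 each, adjusted p = 6e-05 over age, permutation test). Between 13.5 and 15 months it rose by 1.29 (adjusted p = 0.00036), and these groups did not overlap, with a highest value of 0.68 at 13.5 and a lowest of 1.13 at 15 months. At 16.5 months it was lower than at 15 months by 0.54 (adjusted p = 0.0106).

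The ratio of miR-423-3p to miR-484 averaged -2.15 ± 0.41, -2.66 ± 0.35, -2.12 ± 0.40 and -2.04 ± 0.37 at the 4 ages on the log2 scale (SD, n = 10 each, adjusted p = 0.0071, permutation test). From 12 to 13.5 months it dropped by 0.51 (adjusted p = 0.0296) and from 13.5 to 15 months it rose by 0.54 (adjusted p = 0.0176). All 10 libraries of 15 months and of 16.5 months lay above the mean of 13.5 months. In all, 11 of the 36 comparisons of 2 ages were called. Ratios of other microRNAs were not formed, so whether such calls are particular to the references was not tested.

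**Figure D4:**
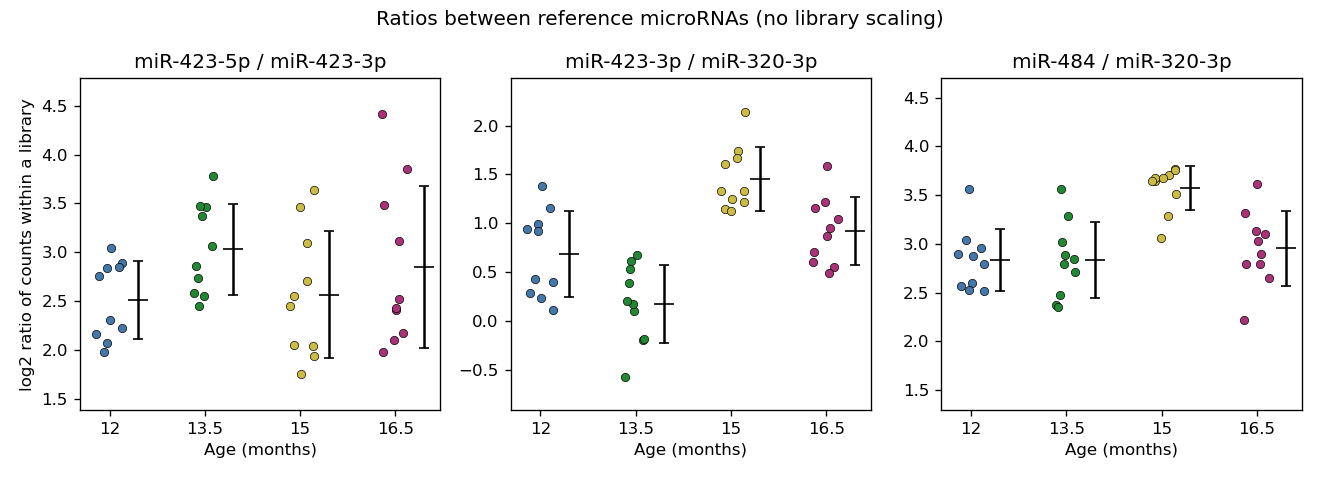
Log2 ratio of the counts of 2 reference microRNAs within a library against age in months, 10 libraries per age as points and the mean with SD beside them, in panels of equal height. The ratio of miR-423-3p to miR-320-3p at 13.5 and 15 months does not overlap, and that of miR-484 to miR-320-3p is high at 15 months (mean 3.57).

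The 3 ratios with miR-423-5p were not called over age, with adjusted p of 0.249 to miR-423-3p, 0.654 to miR-484 and 0.0847 to miR-320-3p (permutation test). These ratios were also the most variable between libraries, with SDs over 40 libraries of 0.62, 0.89 and 0.84. Set against the mean of the other 3 references, miR-423-3p and miR-320-3p differed over age (adjusted p = 4e-05 each, over 4 tests by permutation), whereas miR-484 (0.466) and miR-423-5p (0.577) did not pass the threshold.

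Because miR-423-5p and miR-423-3p come from the same hairpin, their ratio is that of the 2 arms. The 5p arm exceeded the 3p arm in every library, by 3.36-fold to 21.3-fold with a median of 6.24-fold. The range was 3.94-fold to 8.26-fold at 12 months, 5.46-fold to 13.7-fold at 13.5, 3.36-fold to 12.4-fold at 15 and 3.94-fold to 21.3-fold at 16.5 months, where the highest value is that of the library that stood apart and the next was 14.5-fold. The arms thus did not keep a fixed ratio between libraries, while their log2 levels had an r of 0.87 over the 40 libraries, and 0.93 after the age means were removed. The libraries share scaling and depth, so these coefficients are descriptions. The other pairs of references had r from 0.36 (miR-423-3p and miR-320-3p) to 0.67 (miR-423-5p and miR-484).

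The microRNAs most like each reference were taken by Pearson's r of the log2 level over the 40 libraries among all tested. For miR-423-5p these were miR-328-3p (r = 0.96) and miR-486a-3p with miR-486b-3p, whose rows are equal (0.92). For miR-423-3p they were miR-328-3p (0.89), miR-423-5p (0.87) and miR-25-5p (0.84). For miR-484 they were miR-125a-5p (0.74), miR-1981-3p (0.73) and miR-351-5p (0.71). For miR-320-3p they were let-7b-5p (0.88), let-7d-5p (0.87) and let-7c-5p (0.85).

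Sequences are shown for the neighbours of miR-484 and miR-320-3p that share a seed among themselves (RefSeq, GRCm38.p6, seed in capitals). A pair with the seed of miR-125 was among the 3 most like miR-484, beside miR-1981-3p with another seed. Another tested microRNA with that seed, miR-125b-5p, was not. The 3 most like miR-320-3p were of the let-7 family, which restrains growth genes and of which other microRNAs were tested too. These coefficients are descriptions as well, because the libraries share scaling and depth.

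mmu-miR-125a-5p: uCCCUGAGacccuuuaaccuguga

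mmu-miR-351-5p: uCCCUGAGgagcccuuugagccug

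mmu-let-7b-5p: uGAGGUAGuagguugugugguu

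mmu-let-7d-5p: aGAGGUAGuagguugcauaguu

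mmu-let-7c-5p: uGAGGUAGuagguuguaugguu

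The levels of the references were also set against the reads outside miR-486. A scaled level is a count divided by the TMM library size, which itself rises with these reads. Level and depth thus share a term, for which the permutation p makes no allowance. Over all 40 libraries, 3 of the 4 had a negative r on the log2 scales, of -0.42 for miR-423-5p (adjusted p = 0.00877, permutation test over 4 relations), -0.43 for miR-423-3p (adjusted p = 0.00877) and -0.49 for miR-484 (adjusted p = 0.00656). Spearman's rho was -0.24 (adjusted p = 0.187), -0.30 (adjusted p = 0.125) and -0.45 (adjusted p = 0.0168). Without the 2 libraries farthest from the median depth r was -0.23 (p = 0.167), -0.29 (p = 0.0812) and -0.36 (p = 0.0251, permutation test). The r over all ages was thus weaker for all 3 without those libraries. For miR-320-3p r was 0.01 (adjusted p = 0.948), rho 0.17 (adjusted p = 0.298), and r without those 2 libraries 0.33 (p = 0.0465).

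Within the ages the relation was not the same. At 15 months r was -0.72 for miR-423-5p, -0.69 for miR-423-3p, -0.76 for miR-484 and -0.86 for miR-320-3p over 10 libraries, and at 16.5 months -0.96, -0.91, -0.90 and -0.91. At 12 months the coefficients lay between -0.26 and 0.04 and at 13.5 months between -0.29 and 0.50. Without the 2 libraries farthest from the median depth of their age, those of 16.5 months were -0.94, -0.91, -0.70 and -0.59 and those of 15 months -0.53, -0.53, -0.36 and -0.64. Those of 12 months were then -0.21, -0.13, -0.16 and -0.55 and those of 13.5 months 0.47, 0.40, -0.10 and -0.03. For miR-320-3p the value at 12 months was thus near those of the later ages. At the later ages the shallower libraries had the higher scaled levels of all 4 references. Level and depth share a term here, and a relation beyond that was not tested.

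**Figure D5:**
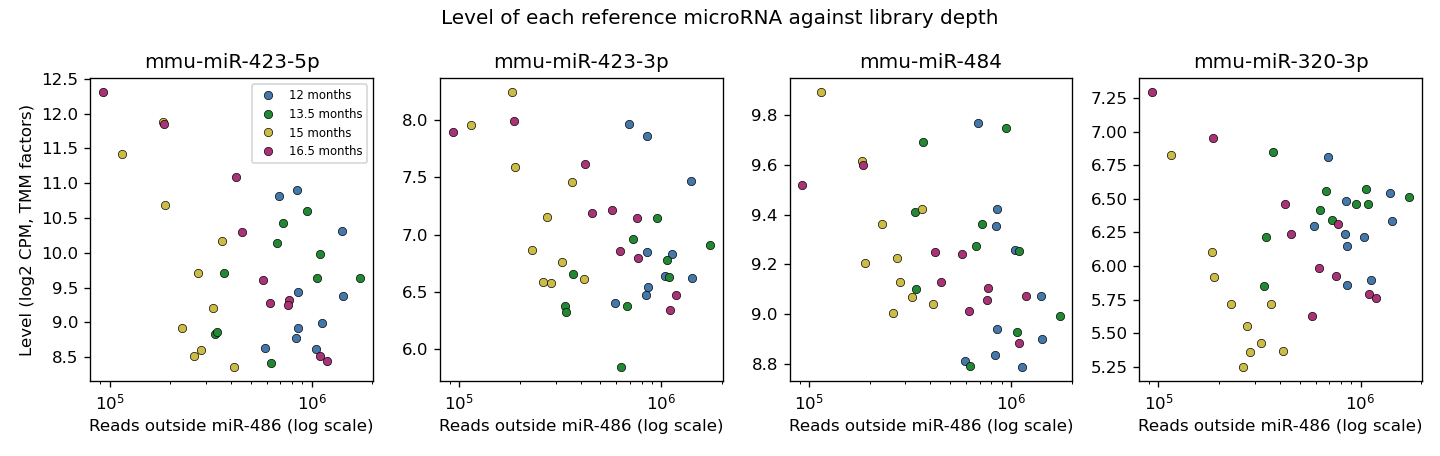
Level of each reference microRNA (log2 CPM with TMM factors) against the reads outside miR-486 (log axis), 1 point per library and 1 colour per age. At 15 and 16.5 months levels are higher in the shallower libraries, with r at 16.5 months between -0.96 and -0.90, while at 12 and 13.5 months r lies between -0.29 and 0.50. The level is a count divided by a library size that rises with these reads, so both axes share a term.

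Finally, the geometric mean of the 4 references was used as the library scale in place of TMM. Of the other 101 microRNAs 31 were then called over age (30.7%, edgeR), against 63 of the same 101 with TMM. The count depended on which reference was in the scale, at 49 without miR-423-5p and 16 without miR-484. At 16.5 against 12 months the median log2 difference of the other microRNAs was -0.17 on the scale of the references and -0.04 with TMM, and 1 was called higher and 1 lower, against 14 and 11. At 15 against 13.5 months 7 were called higher and 12 lower, against 17 and 31 with TMM.

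Against TMM, the scale of the 4 references had an SD of 0.52 log2 over the 40 libraries and ran from -0.68 to 1.24. Its mean stood at -0.06, -0.04, -0.03 and 0.13 at the 4 ages, and its SD within an age was 0.63 at 15 and 0.65 at 16.5 months against 0.47 at 12 and 0.34 at 13.5 months. miR-484 on its own had an SD of 0.29 against TMM, from -0.43 to 0.68.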

How the data were processed

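The labels gave the age groups. The columns of the count table give the age but none of the labels' replicate numbers, and no column was left without an age. The deposited values are raw counts of reads per mature microRNA, which the authors made by adapter trimming, quality checks with FastQC 0.11.5 (named in the submitters' processing notes), mapping to mm10 and counting of exact matches to miRBase precursors with miRDeep2, summed over genomic locations. Such counts depend on the efficiency with which an adapter joins each sequence, so levels of different microRNAs are less comparable than levels of the same one. Reads of amplified libraries without molecular identifiers overstate independent molecules, so counting errors are lower bounds. Because miR-486a and miR-486b have equal rows, their reads enter the totals 2 times. A second deposited table, with a normalized signal, was not used.

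Tests were run in edgeR 4.0.16 (R 4.3.3, with TMM, glmQLFit and glmQLFTest) on the 105 microRNAs that exceeded 100 reads in 50% of all libraries, with age as 4 groups, Benjamini-Hochberg adjustment over all 105 and a threshold of 0.05. Each SE is the size of the log2 fold change divided by the root of its F statistic, and levels use a prior count of 2. Ratios used log2 counts with a pseudocount of 0.5 and permutation tests (of the F statistic over 4 ages, two-sided between 2) with 100000 resamples and a fixed seed (numpy 2.4.6). Tests of correlations were permutations too. No 2 libraries of an age were duplicates, the 180 pairs having a chi-square of at least 11.4 per degree of freedom. The steps were tested on simulated data. Hairpin positions came from GENCODE M21 on GRCm38.

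The text names the 4 references, the steadiest and most variable of the 15 other normalizers, the 3 microRNAs with the smallest SD, the 3 most like each reference and the second arm of the hairpins. Members, lists and rules were chosen with earlier results of these data known. Alternatives were DESeq2 1.42.0, limma 3.58.1 with voom and library quality weights (voom below), other scalings and filters, RUVs factors of unwanted variation and linear age. Further ones were fits to 2 ages, fits without libraries whose connectivity Z-score lay beyond 2.5, another pseudocount and another statistic. The home cage and learning groups were not separated.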

Additional observations from a re-analysis of the deposited data

Results flagged for a closer look

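Each reference and each ratio was examined for a library far from the rest of its age, in 40 sets of 10 libraries, of which chance alone marks about 1 in 20. In 1 of the 40 sets a library lay beyond Dixon's critical value of 0.466. The log2 ratio of miR-484 to miR-320-3p was 3.57 in a library of 12 months, whose nearest neighbour was at 3.04, a gap of 0.499 of the range of that age.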

How the results depend on the processing

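The 10 tests of ratios kept their calls under all 4 alternatives (another pseudocount, the Kruskal-Wallis statistic, no library that stood apart, no 15-month library of the B form, the last chosen after seeing the data). Of 56 alternative values of the tests over age, 45 kept their side of the threshold, and of 70 for the 5 called differences 53 did. Adjusted p over age turned to calls for miR-423-3p with median-ratio factors (0.0268), library totals (0.00535), TMM without the miR-486 rows (0.0376), DESeq2 (0.0135) and 1 or 2 factors of unwanted variation (1.27e-07 and 1.77e-07), for miR-423-5p with 1 or 2 factors (0.0323 and 0.0337), and for miR-484 with library totals (0.00174) and 2 factors (0.0278). The adjusted p of miR-320-3p over age rose to 0.558 with age as a line, where 21 of all 105 microRNAs were called. The log2 difference of miR-320-3p at 15 against 12 months was no longer called with median-ratio factors (-0.46), TMM without miR-486 (-0.42) and only 2 ages (-0.40), and at 16.5 against 15 months with TMM without miR-486 (0.47), no filter (0.54), no library that stood apart (0.38) and only 2 ages (0.48). That of miR-423-3p at 15 against 13.5 months was not called with voom (0.36) or no filter (0.55), and at 16.5 against 13.5 months with library totals (0.31), the total outside miR-486 (0.47), voom (0.38), the filter of more than 1 read (0.57), no filter (0.52) and without the library that stood apart (0.51). On library totals signs turned for miR-423-3p at 15 against 12 (-0.62), 15 against 13.5 (-0.24) and 16.5 against 15 months (0.55), and for miR-484 (-0.64, -0.79 and 0.49), with medians of all microRNAs at -0.84, -0.81 and 0.64. With 1 or 2 factors of unwanted variation miR-423-5p turned at 13.5 against 12 months (-0.30 and -0.31). Among the 266 alternative values of the 19 differences not called, another 33 changed sign with neither value called, among them miR-423-5p on library totals (-0.49 at 15 against 12 and -0.62 at 15 against 13.5 months) and with voom (-0.40 at 15 against 13.5 and -0.16 at 16.5 against 13.5 months), and 9 became calls in the same direction. These were miR-423-3p at 13.5 against 12 months (-0.58 and -0.56) and miR-423-5p at 16.5 against 13.5 months (0.32 and 0.32) with 1 and 2 factors, miR-484 at 15 against 12 (0.26) and 16.5 against 15 months (-0.32) with 2 factors, miR-320-3p at 16.5 against 13.5 months on library totals (-0.47) and with voom (-0.41), and miR-423-5p at 16.5 against 15 months on library totals (0.83). On library totals the SDs were 0.42 for miR-423-3p (rank 4, from 70), 0.47 for miR-484 (rank 8, from 10), 0.67 for miR-320-3p (rank 37, from 52) and 0.77 for miR-423-5p (rank 57, from 102). Other microRNAs called over age numbered 31 with the references as scale, 49 without miR-423-5p in it, 16 without miR-484, 63 with TMM, 71 with median-ratio factors and 80 with library totals. The cause of these changes was not tested.

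The labels' replicate numbers are not in the column names, so they could not serve as a block. Each column name opens with a number that recurs at every age, and a replicate block on it, chosen after seeing the data, took away the call of miR-423-3p at 16.5 against 13.5 months (0.55, adjusted p = 0.083, edgeR) and no other call among the references. The median r of deviations was -0.03 for the same number and 0.01 for others, and 24 of 60 pairs were above 0.1. Of the 40 libraries 6 were most like those of their own number. Spread between libraries can hide a likeness of the same animal, so these values do not decide whether the number is the animal. The ratio tests were not run with this block. Depth limits miR-320-3p most, with 178 reads in the lowest library.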
